A study of Mus musculus with 4 samples.

Results

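The collagen genes were compared across primary astrocyte cultures of 4 brain regions, all from CD-1 mice, an outbred stock. All single-gene probe sets whose symbol reads Col, a number, the letter a and a number were taken, which gave 58 of the array's 22690 probe sets. They stand for 36 of the 12393 genes measured: 9 fibrillar, 6 basement membrane, 9 FACIT and 12 other collagens. Members were taken by symbol, and the rule uses no signal. Of the 44 collagen symbols in the RefSeq mouse gene table, 8 (Col6a4, Col6a5, Col6a6, Col8a2, Col23a1, Col24a1, Col27a1 and Col28a1) had no single-gene probe set in the annotation used here and were not analysed.

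The cultures came from the olfactory bulb, the ventral mesencephalon (the floor of the midbrain), the hippocampus and the subventricular zone (SVZ, the germinal layer beside the lateral ventricle), all labelled primary astrocytes of the CD-1 strain at postnatal day 3. Dissociated tissue was grown in medium with 10% serum, enriched for astroglia by shaking at 200 rpm, then replated and kept as monolayers, with no other treatment named in the labels. Tissue of littermates was pooled. The series text names 4 pups in one sentence and 3 in the next, and which holds is not settled here. Each region was measured on 1 Affymetrix array, so nothing below has a replicate check, no p-value was computed, and the number of arrays limits the precision. The labels' astrocyte identity was checked here on Gfap alone, the astrocyte intermediate filament, which read 3800.2 in the bulb, 1007 in the mesencephalon, 10027 in the hippocampus and 3112 in the SVZ. It was above the median of all signals in all 4 cultures. Other astrocyte markers, given further on, were not all detected.

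Collagens are extracellular proteins in which chains with regularly spaced glycines wind into a triple helix. Fibrillar collagens are cut free of their propeptides outside the cell, assemble into fibrils and are cross-linked, whereas type IV collagen forms the sheet-like network of basement membranes. FACITs, collagens with interrupted helices, decorate the surface of fibrils. In the brain fibrillar collagens are found mainly in the meninges and the walls of larger vessels, and type IV collagen lines the vessels and the surface of the brain beneath the meninges.

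Signals are given on the linear scale of the deposited table. A floor of 122.1, the median of all signals on the 4 arrays, stood in for missing detection calls, and lower signals were raised to it before taking log2. Folds against a signal under the floor are therefore lower bounds, written "at least". The word "called" is kept for a gap of at least 2-fold, above or below, between a culture and each of the other 3. A gene with several probe sets was represented by the one with the highest mean log2 signal. As a yardstick of measurement scatter, probe sets of the same gene differed with a median-based SD of 0.16 log2 per array. It was taken over the 1972 genes whose 2 brightest probe sets passed the floor on all 4 arrays. That value does not cover the spread between cultures.

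Collagen transcripts differed widely between the cultures, and most of the well detected ones were highest in the olfactory bulb or mesencephalon and lowest in the SVZ. Of the 36 genes, 17 were at least 2-fold apart between their highest and lowest region, where 20.0% of all 12393 genes were. In 11 of the 36, both the bulb and the mesencephalon lay above both the hippocampus and the SVZ, by whatever margin. This pattern, set as a rule after the values were seen, was shown by 10.7% of all genes. The reverse pattern was shown by 2 collagens, Col4a5 and Col4a6, against 12.9% of all genes. On at least 1 array 25 of the 36 were above the floor (64.4% of all genes), and the rest are listed further on.

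Over all 36 genes the median shift, a culture's log2 signal minus the average of the remaining 3 cultures, was 0.00 in the bulb, 0.00 in the mesencephalon, 0.00 in the hippocampus and -0.09 in the SVZ, since undetected genes sit at the floor, and it was 0.00 in each region over all genes. The mean log2 signal over the 4 arrays, taken before raising signals to the floor, passed the floor in 17 collagens (56.2% of all genes did so). Col14a1, at 899 in the bulb but 46.7 in the mesencephalon and 13.5 in the SVZ, was not among them. Among the 17 the medians were 1.03 in the bulb, 0.64 in the mesencephalon, -0.43 in the hippocampus and -1.32 in the SVZ. Over the 6960 genes of the whole array that passed the same mean they were 0.01 in the bulb, -0.05 in the mesencephalon, 0.01 in the hippocampus and 0.01 in the SVZ. Of these 17 collagens, 8 had their highest signal in the bulb (29.8% of all such genes), 4 in the mesencephalon (20.5%), 2 in the hippocampus (25.9%) and 3 in the SVZ (23.9%). The lowest signal was in the SVZ for 11 of the 17, against 23.6% of all such genes. In bulk cultures fewer cells of a type and less RNA per cell cannot be told apart.

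**Figure D1:**
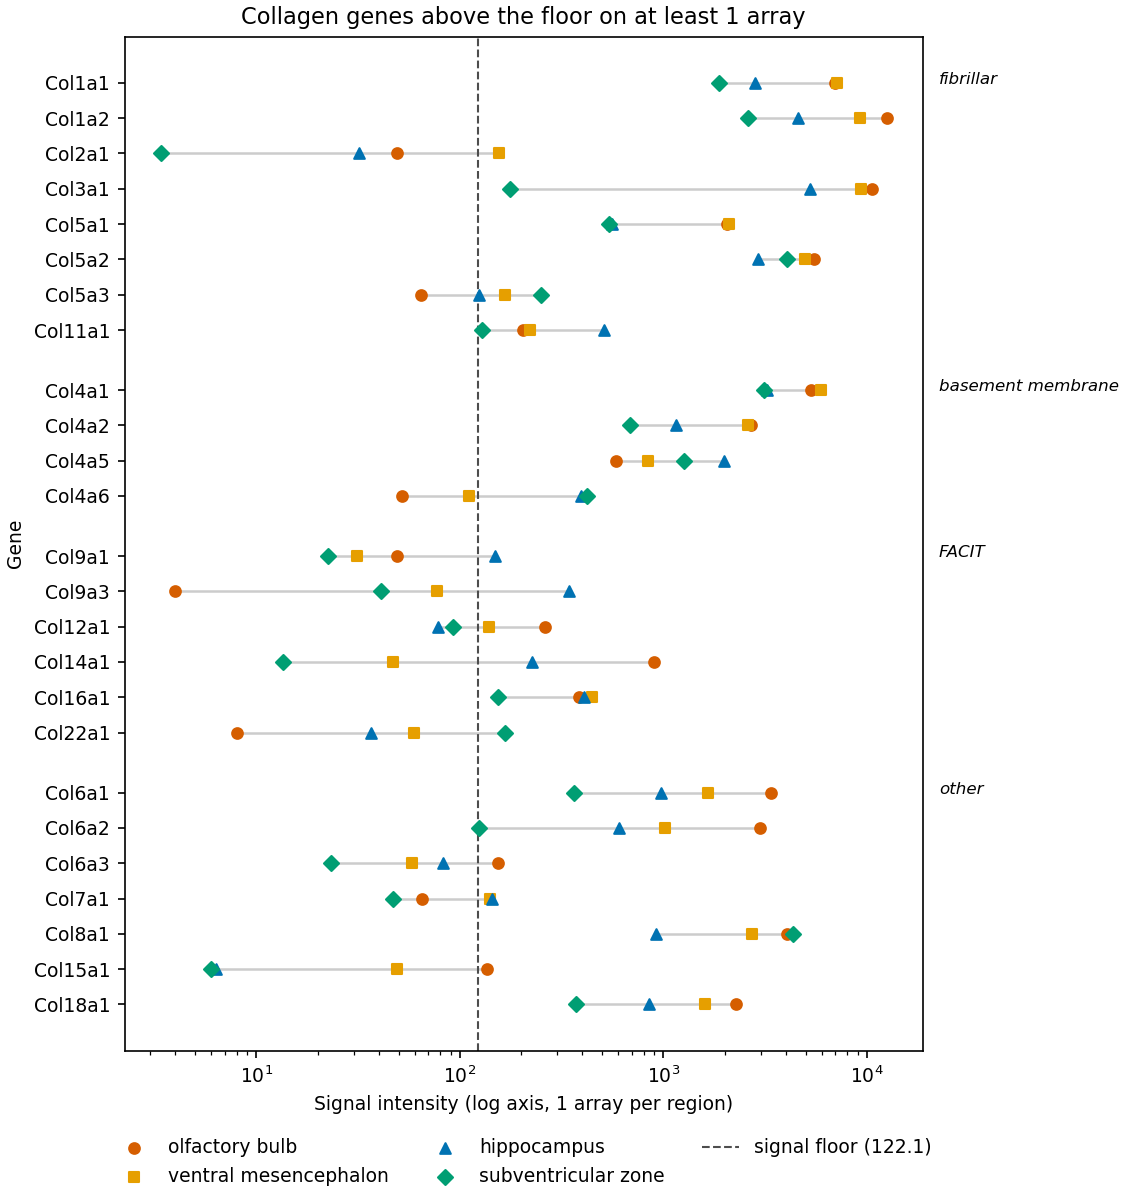
Signal intensity (log axis) of the 25 collagen genes that passed the floor on any array, by class, with 1 point per region and a dashed line at the floor of 122.1. The bulb and mesencephalon points of Col1a1, Col1a2, Col3a1, Col5a1, Col4a2, Col6a1, Col6a2 and Col18a1 lie right of the hippocampus and SVZ points, while those of Col4a5 and Col4a6 lie left of them.

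The sequences just before the transcription start of 4 members are shown because these genes carry the main contrasts: Col1a2 and Col3a1 were high in the bulb and mesencephalon, and Col4a5 and Col4a6 were low there. They are from RefSeq (GRCm38.p6), 5′ to 3′ on the gene's strand, in order chr6:4505368-4505617 (plus strand), chr1:45311288-45311537 (plus), chrX:141475169-141475369 (plus) and chrX:141474096-141474326 (minus). The 49 bases of Col4a5 and 19 bases of Col4a6 nearest the start were left off because other transcripts of the gene begin in them, which removed 1 GGGCGG match from each. Capitals mark matches on either strand to CCAAT, the core of the CCAAT box, to GGGCGG (the GC box) and to TATAAA (the TATA box), which do not overlap here.
Col1a2: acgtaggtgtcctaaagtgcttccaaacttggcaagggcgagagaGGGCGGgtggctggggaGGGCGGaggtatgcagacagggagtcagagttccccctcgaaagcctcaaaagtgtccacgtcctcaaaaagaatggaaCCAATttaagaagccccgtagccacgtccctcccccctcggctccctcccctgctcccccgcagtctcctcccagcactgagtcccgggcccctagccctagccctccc
Col3a1: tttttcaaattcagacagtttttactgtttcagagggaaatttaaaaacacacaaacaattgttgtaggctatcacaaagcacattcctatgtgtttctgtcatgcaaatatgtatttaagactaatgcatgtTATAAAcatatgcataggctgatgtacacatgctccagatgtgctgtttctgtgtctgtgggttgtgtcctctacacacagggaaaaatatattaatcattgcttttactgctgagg
Col4a5: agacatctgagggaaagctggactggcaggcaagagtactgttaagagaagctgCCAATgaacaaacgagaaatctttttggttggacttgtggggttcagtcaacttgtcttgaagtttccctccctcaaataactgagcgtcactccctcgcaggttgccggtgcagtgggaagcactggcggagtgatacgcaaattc
Col4a6: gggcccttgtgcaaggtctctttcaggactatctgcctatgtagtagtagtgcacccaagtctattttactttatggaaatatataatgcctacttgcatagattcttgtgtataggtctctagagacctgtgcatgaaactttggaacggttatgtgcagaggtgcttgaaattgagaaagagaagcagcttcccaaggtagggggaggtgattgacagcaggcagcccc

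The Col1a2 stretch held 1 CCAAT and 2 GGGCGG matches and was 62.0% G and C. The Col3a1 stretch held 1 TATAAA match, none of the others and no CG pair, and was 35.2% G and C. So these fibrillar genes, which were both highest in the bulb, do not share any of the 3 motifs in this window. The RefSeq promoter table held windows for 27 of the 36 genes, 30 windows in all. In the 250 bases before the start, CCAAT occurred on either strand in 12 of the 30 (40.0%, against 33.8% of all 32851 promoters), GGGCGG in 16 (53.3% against 32.7%) and TATAAA in 5 (16.7% against 12.4%). A match is a run of letters and not a shown binding site.

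The fibrillar chains made up the most visible part of the pattern. Type I collagen, the main fibril former of connective tissue, is built from the products of Col1a1 and Col1a2. Col1a1 read 6994 in the bulb, 7145 in the mesencephalon, 2812 in the hippocampus and 1868 in the SVZ. Col1a2 read 12488 in the bulb, 9273 in the mesencephalon, 4562 in the hippocampus and 2618 in the SVZ. Both chains thus had the bulb and mesencephalon in front and the SVZ last, with the bulb 3.7-fold (Col1a1) and 4.8-fold (Col1a2) above the SVZ. The bulb and the mesencephalon differed by 1.0-fold in Col1a1 and 1.3-fold in Col1a2.

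Type III collagen, made from Col3a1 and co-assembled with type I in elastic tissues such as vessel walls, had the widest range among the members once signals were raised to the floor. Col3a1 read 10549 in the bulb, 9394 in the mesencephalon, 5270.5 in the hippocampus and 176 in the SVZ. The bulb was 59.9-fold and the hippocampus 29.9-fold above the SVZ, so the gap lay between the SVZ and everything else. In type I the hippocampus was 1.5-fold (Col1a1) and 1.7-fold (Col1a2) above the SVZ by the brighter probe sets. The gap was wider by the second ones, with 2029 in the hippocampus against 651 in the SVZ for Col1a1, and 2042 against 540.5 for Col1a2. The bulb was 2.0-fold above the hippocampus.

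Type V collagen starts fibrils of type I and sets their width. Col5a1 split the cultures into pairs, at 2060.0 in the bulb and 2106 in the mesencephalon against 558 in the hippocampus and 538 in the SVZ. In its partner chain Col5a2 the same cultures were in front by less, with 5492 in the bulb, 4967.5 in the mesencephalon, 2928 in the hippocampus and 4032 in the SVZ, less than 2-fold in all. Col5a3, a further type V chain, was closer to the floor and ran the other way, with 64.5 in the bulb, 166 in the mesencephalon, 124 in the hippocampus and 251 in the SVZ. Its signal in the bulb was at least 2.1-fold lower than in the SVZ.

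Fibrillar chains best known from cartilage behaved differently. Col11a1, a chain of type XI collagen that nucleates cartilage fibrils, was highest in the hippocampus at 511, against 204 in the bulb, 222 in the mesencephalon and 129 in the SVZ. The hippocampus was 2.3-fold above the mesencephalon, the next highest culture. Col2a1, the main cartilage fibril chain, passed the floor in the mesencephalon alone, at 156, with 49.0 in the bulb, 31.9 in the hippocampus and 3.4 in the SVZ, at least 1.3-fold above each of the others. Of the 9 fibrillar genes, 5 (Col1a1, Col1a2, Col3a1, Col5a1 and Col5a2) had both the bulb and the mesencephalon above both other cultures. Col5a2 did so by its first probe set only, as given further on.

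Type IV collagen split into chain pairs with opposite order. Col4a1 and Col4a2 encode the chains of the ubiquitous basement membrane network. Col4a1 read 5316 in the bulb, 5977 in the mesencephalon, 3220.4 in the hippocampus and 3110.1 in the SVZ, and Col4a2 read 2684.5 in the bulb, 2616 in the mesencephalon, 1153 in the hippocampus and 683 in the SVZ. Both were higher in the bulb and mesencephalon, by up to 1.9-fold for Col4a1 and 3.9-fold for Col4a2. The genes are adjacent on chromosome 8, and in the RefSeq promoter table their starts lie 21 bases apart on opposite strands.

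Col4a5 and Col4a6 encode chains of a more restricted network, and COL4A5 mutations cause Alport syndrome of the kidney in humans. Col4a5 read 583 in the bulb, 836 in the mesencephalon, 1991 in the hippocampus and 1268.5 in the SVZ, and was 3.4-fold lower in the bulb than in the hippocampus. Col4a6 was under the floor in the bulb (52.1) and mesencephalon (111) and read 395 in the hippocampus and 423 in the SVZ. Its signal in each of the first pair was at least 3.2-fold lower than in the hippocampus and at least 3.5-fold lower than in the SVZ. These genes too are adjacent, on the X chromosome, with starts 1343 bases apart on opposite strands in the RefSeq promoter table. Col4a3 and Col4a4, adjacent on chromosome 1, did not exceed 34.1 on any array.

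**Figure D2:**
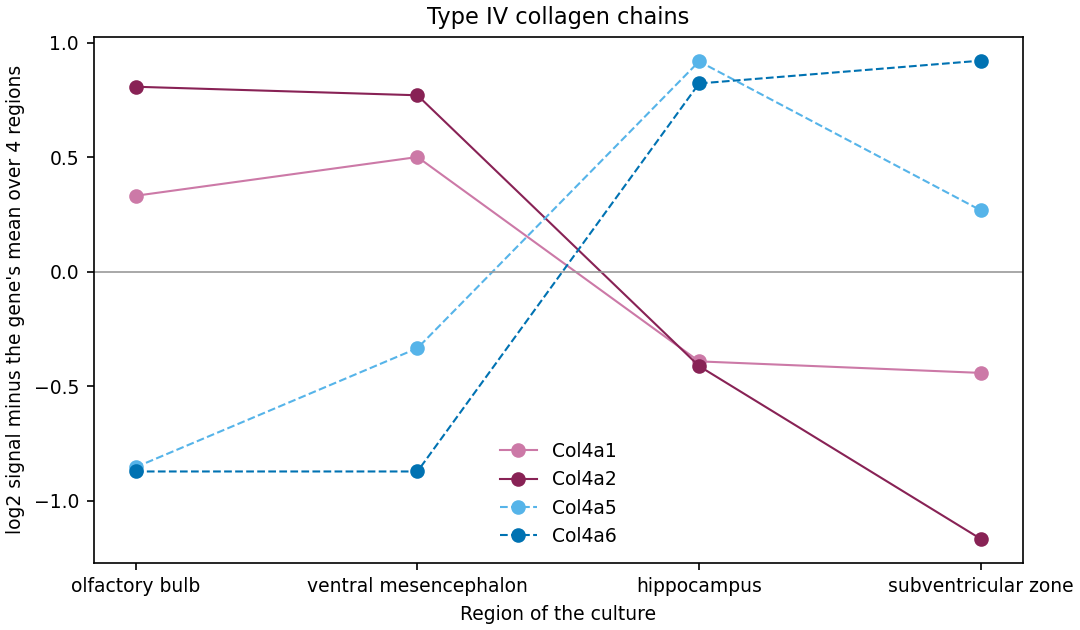
log2 signal of the 4 detected type IV collagen genes minus each gene's own mean over the 4 cultures (signals under the floor raised to 122.1, which sets both low points of Col4a6); lines only join the points of a gene. Col4a1 and Col4a2 lie above 0 in the bulb and mesencephalon and below it in the hippocampus and SVZ, and Col4a5 and Col4a6 the other way round.

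Not every pair of neighbouring collagen genes kept the same order. Col3a1 and Col5a2 are next to each other on chromosome 1, yet their shifts in the SVZ were -5.52 for Col3a1 and -0.10 for Col5a2 on the log2 scale. Col6a1 and Col6a2, neighbours on chromosome 10, kept theirs, at 2.00 (Col6a1) and 2.80 (Col6a2) in the bulb and -2.27 (Col6a1) and -3.30 (Col6a2) in the SVZ.

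Beaded-filament collagen VI, which links cells to the surrounding matrix, stepped down from culture to culture. Col6a1 read 3359 in the bulb, 1651 in the mesencephalon, 977 in the hippocampus and 364 in the SVZ. Col6a2 read 2972.5 in the bulb, 1024 in the mesencephalon, 607 in the hippocampus and 124 in the SVZ. Both kept the same order over the 4 cultures, and the bulb was 9.2-fold (Col6a1) and 23.9-fold (Col6a2) above the SVZ. Col6a3, the chain that completes the type VI molecule, passed the floor in the bulb alone, at 154, with 57.9 in the mesencephalon, 82.7 in the hippocampus and 23.3 in the SVZ.

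The multiplexin Col18a1, a basement membrane collagen whose end fragment is endostatin, had the same order as type VI. It read 2261 in the bulb, 1593 in the mesencephalon, 852 in the hippocampus and 374 in the SVZ, 6.0-fold between the bulb and the SVZ. The related Col15a1 was just over the floor in the bulb (136) and under it in the mesencephalon (49.0), hippocampus (6.3) and SVZ (6.0).

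Col8a1, a short-chain collagen of vessel walls and of the basement membrane of the corneal endothelium, was called lower in the hippocampus. It read 4058 in the bulb, 2740.3 in the mesencephalon, 915 in the hippocampus and 4329 in the SVZ. The SVZ, lowest for most collagens, was here level with the bulb (1.1-fold), and the mesencephalon was 3.0-fold above the hippocampus. Col7a1, the anchoring fibril collagen of skin, stayed near the floor, with 64.9 in the bulb, 141 in the mesencephalon, 144.5 in the hippocampus and 46.8 in the SVZ.

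The 6 detected FACIT collagens differed from each other in the order of the cultures. Col14a1, which binds type I fibrils, was highest in the bulb at 899, against 46.7 in the mesencephalon, 225 in the hippocampus and 13.5 in the SVZ. The bulb was 4.0-fold above the hippocampus. Col12a1, its close relative on the same fibrils, had the bulb in front as well, at 261, against 138.5 in the mesencephalon, 78.0 in the hippocampus and 92.6 in the SVZ. Its bulb signal was 1.9-fold above that in the mesencephalon.

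Col16a1, a minor FACIT of fibrils and basement membranes, was even in 3 cultures and low in the other one. It read 387 in the bulb, 445 in the mesencephalon, 409 in the hippocampus and 154 in the SVZ, so that the bulb, the lowest of the first 3, was 2.5-fold above the SVZ. The type IX chain Col9a3 was highest in the hippocampus at 345, at least 2.8-fold above the bulb (4.0), mesencephalon (77.0) and SVZ (40.9). Col9a1, another chain of type IX, which coats cartilage fibrils, passed the floor in the hippocampus alone, at 148, with 48.9 in the bulb, 31.3 in the mesencephalon and 22.6 in the SVZ. The detected type IX chains, Col9a1 and Col9a3, thus shared their highest culture with the cartilage chain Col11a1. The type IX chain Col9a2 was under the floor on all 4 arrays, and the cartilage chain Col2a1 passed it in the mesencephalon alone. Col22a1, a collagen of tissue junctions, passed the floor in the SVZ alone, at 166, with 8.0 in the bulb, 59.3 in the mesencephalon and 36.4 in the hippocampus.

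The remaining 11 members, Col11a2, Col4a3, Col4a4, Col9a2, Col19a1, Col20a1, Col10a1, Col13a1, Col17a1, Col25a1 and Col26a1, were under the floor on all 4 arrays. Their highest single signal was 106.4, from Col26a1 in the hippocampus.

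Under the rule of a 2-fold gap to each other region, 3 collagens were higher in the bulb (Col14a1, Col6a1 and Col6a2), against 1.2% of all genes, and none was lower (1.0% of all genes). None was higher (1.01%) or lower (0.363%) in the mesencephalon. In the hippocampus 2 were higher (Col11a1 and Col9a3, against 1.61%) and 1, Col8a1, was lower (0.315%). In the SVZ 5 were lower (Col3a1, Col16a1, Col6a1, Col6a2 and Col18a1), against 0.654% of all genes, and none was higher (0.823%).

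The 2-fold limit left close neighbours on either side. Col6a1 was just inside at 2.03-fold in the bulb, a call it lost under quantile normalization, and Col18a1 at 2.28-fold in the SVZ, and Col12a1 in the bulb (1.88-fold) and Col1a2 in the SVZ (1.74-fold) were just outside.

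These counts moved with the cultures entered, since a call needs a gap to every other culture. Without the mesencephalon array 10 collagens were higher and 2 lower in the bulb, and 1 was higher in the SVZ. Without the bulb array 4 were higher and 1 lower in the mesencephalon. Without the hippocampus array 9 were lower and 1 higher in the SVZ, and without the SVZ array 4 were higher and 5 lower in the hippocampus.

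Pairs of cultures were also set side by side. At 2-fold or more, 11 of the 36 collagens were higher and 3 lower in the bulb than in the SVZ, against 5.41% and 5.8% of all genes. In the mesencephalon 9 were higher and 1 lower than in the SVZ (3.2% and 3.51% of all genes). Against the hippocampus 11 were higher and 4 lower in the bulb (3.37% and 5.6%), and 5 were higher and 4 lower in the mesencephalon (4.37% and 6.08%). The bulb differed least from the mesencephalon, with 3 higher and none lower (3.57% and 4.16%). Between the last pair, 7 were higher and 2 lower in the hippocampus than in the SVZ (4.21% and 3.19%). These pairs share arrays, so they are not separate evidence.

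Where a gene had several detected probe sets, they gave the same direction between the bulb and the SVZ but not the same size. Of 19 collagen genes with several, 13 had the second one above the floor on at least 1 array. It placed the highest region as the first did in 11 of the 13 and the lowest region in 11 of the 13. Col1a2 was 4.8-fold higher in the bulb than in the SVZ by its brighter probe set and 15.1-fold by the other, which read 8136 in the bulb, 5001 in the mesencephalon, 2042 in the hippocampus and 540.5 in the SVZ. Col1a1 was 3.7-fold and 7.6-fold higher, and Col3a1 59.9-fold and at least 17.7-fold.

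The order of the cultures differed between the probe sets of several genes. The second probe set of Col5a2 read 2597 in the bulb, 644 in the mesencephalon, 1387 in the hippocampus and 547 in the SVZ, so the SVZ was the lowest there and the hippocampus by the first. By the second the mesencephalon was also below the hippocampus. Col5a2 thus counts among the 11 collagens with both bulb and mesencephalon in front by its first probe set only. In Col14a1 the SVZ was lowest by the first probe set and the mesencephalon by the second, all 4 of these signals being under the floor. In Col11a1 the bulb and the mesencephalon, ranked between the other cultures, changed places. By its second probe set the hippocampus, at 463, was less than 2-fold above the bulb, at 251. The hippocampus call of Col11a1 was thus met by the first probe set and not by the second, and it was kept when they were averaged. The bulb over the mesencephalon was 0.98 in the first and 1.58 in the second probe set of Col1a1, and 0.98 and 1.57 in those of Col5a1, so the highest culture differed. Among the 13 genes the largest distance between the shifts of the first and the second probe set was 2.31 log2 in Col3a1, 1.74 in Col8a1 and 1.39 in Col1a2. The SD of that difference was 0.27 over the 1972 genes whose probe sets both passed the floor on all arrays. Those of Col3a1 and Col8a1 did not. The second read 23.5 in the SVZ for Col3a1, and 88.9 in the mesencephalon and 55.3 in the hippocampus for Col8a1. Raising these signals to the floor thus set part of both distances. The hippocampus call of Col9a3 rests on 1 probe set, since its other probe sets were under the floor on all arrays. That of Col8a1 also rests on its first probe set, since the second was 1.6-fold apart between its highest and lowest culture. The calls of Col9a3 and Col8a1 were lost when the probe sets of a gene were averaged. Averaging also made Col1a1 and Col1a2 called lower in the SVZ, which gave 7 collagens lower there.

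**Figure D3:**
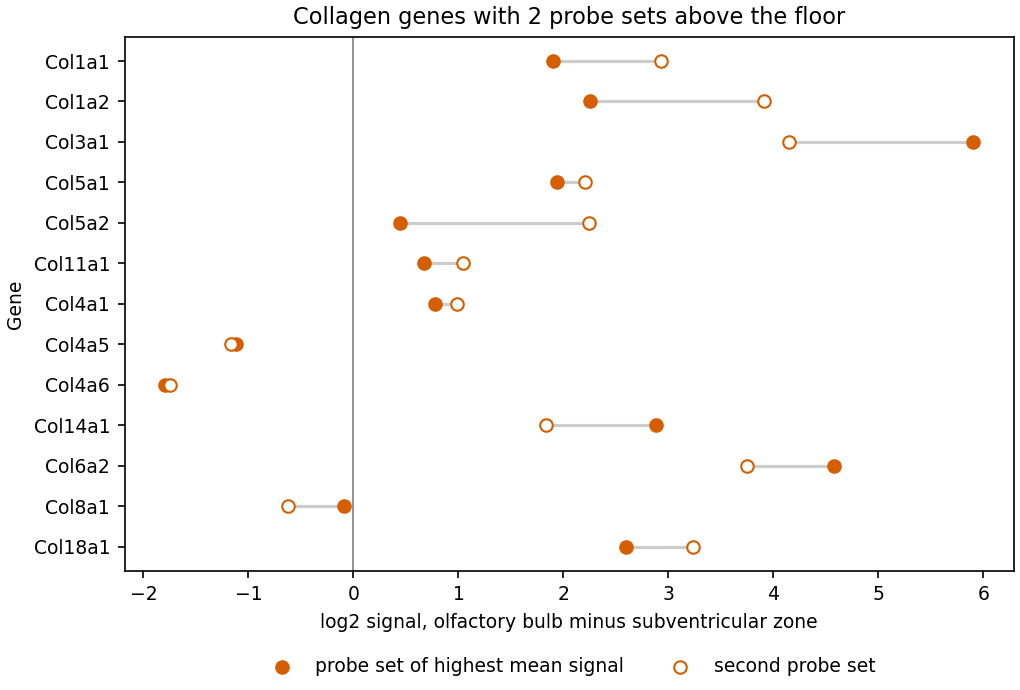
log2 signal difference, olfactory bulb minus SVZ (signals raised to the floor), for the 13 collagen genes with 2 probe sets above the floor on at least 1 array. Filled points are the probe set of highest mean signal and open points the second, and both lie on the same side of 0 in every gene shown.

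Genes that modify and process collagen followed the collagens in part. Of 24 such genes measured, 16 had both the bulb and the mesencephalon above both the hippocampus and the SVZ (10.7% of all genes). Of the 24, 14 were at least 2-fold apart between regions (20.0% of all genes). The 24 came from a list of 39 names, which counts older and newer symbols of some genes separately. The shares of all genes include more undetected ones, since 22 of the 24 passed the floor on at least 1 array, against 64.4% of all genes. The first count sets no smallest gap. Plod3 entered it with 1392 in the bulb against 1366 in the SVZ, and Plod1 with 599 in the mesencephalon against 565 in the hippocampus. The medians over all 24 were 0.56 in the bulb, 0.36 in the mesencephalon, -0.40 in the hippocampus and -0.58 in the SVZ. Of the 24, 2 were lower in the SVZ than in each other culture, Pcolce and Lox (0.654% of all genes), and 1, Loxl1, was lower in the hippocampus (0.315%). Other genes of this list were chosen for naming after their values were seen.

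Hydroxylation of proline and lysine stabilises the helix and prepares it for cross-linking. P4ha2, a catalytic subunit of prolyl 4-hydroxylase, read 1732 in the bulb, 1471 in the mesencephalon, 289 in the hippocampus and 157 in the SVZ. Its paralogue P4ha1 differed less, with 978 in the bulb, 1609 in the mesencephalon, 904 in the hippocampus and 764 in the SVZ. Crtap, part of the prolyl 3-hydroxylation complex, read 2577 in the bulb, 1769 in the mesencephalon, 794 in the hippocampus and 871 in the SVZ. All 3 had the bulb and the mesencephalon in front, as did the collagen chaperone Serpinh1 with 7248 in the bulb, 5572 in the mesencephalon, 3771 in the hippocampus and 3291.5 in the SVZ.

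Outside the cell, propeptides are removed and fibrils cross-linked. Pcolce, which speeds removal of the C-propeptide, read 7030.2 in the bulb, 4226 in the mesencephalon, 1431 in the hippocampus and 419 in the SVZ. Bmp1, the protease it assists, differed little, with 706 in the bulb, 1074 in the mesencephalon, 804.5 in the hippocampus and 839 in the SVZ. The cross-linking enzyme Lox read 8828 in the bulb, 10067 in the mesencephalon, 2327 in the hippocampus and 655 in the SVZ, with the hippocampus 3.6-fold above the SVZ.

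Loxl1, a related enzyme that acts on elastin, had another order. It read 4096.5 in the bulb, 2608 in the mesencephalon, 1240 in the hippocampus and 3248 in the SVZ, with the mesencephalon 2.1-fold above the hippocampus, the order that Col8a1 showed except at the top. Sparc, a collagen-binding glycoprotein, was high in all 4, from 14562 in the bulb to 10411 in the hippocampus.

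Of 7 collagen receptor genes measured, from a list of 11 names, 4 passed the floor on at least 1 array (64.4% of all genes). Ddr2 and Mrc2 were called higher in the bulb (1.2% of all genes), and Ddr1 and Itgb1 were chosen for naming after their values were seen. Ddr2, a receptor tyrosine kinase for fibrillar collagen, was highest in the bulb at 863, against 334 in the mesencephalon, 87.1 in the hippocampus and 86.9 in the SVZ. Mrc2, an endocytic receptor that takes up collagen fragments, was likewise highest in the bulb at 1414, with 598 in the mesencephalon, 104 in the hippocampus and 8.9 in the SVZ. Ddr1, the related kinase that also binds type IV collagen, ran the other way, with 2669 in the bulb, 4728.5 in the mesencephalon, 5514 in the hippocampus and 5644 in the SVZ. The kinase pair thus had opposite orders, as the type IV chain pairs did. Itgb1, the integrin chain shared by collagen-binding integrins, read 2414 in the bulb, 3151 in the mesencephalon, 1452 in the hippocampus and 1757 in the SVZ.

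**Figure D4:**
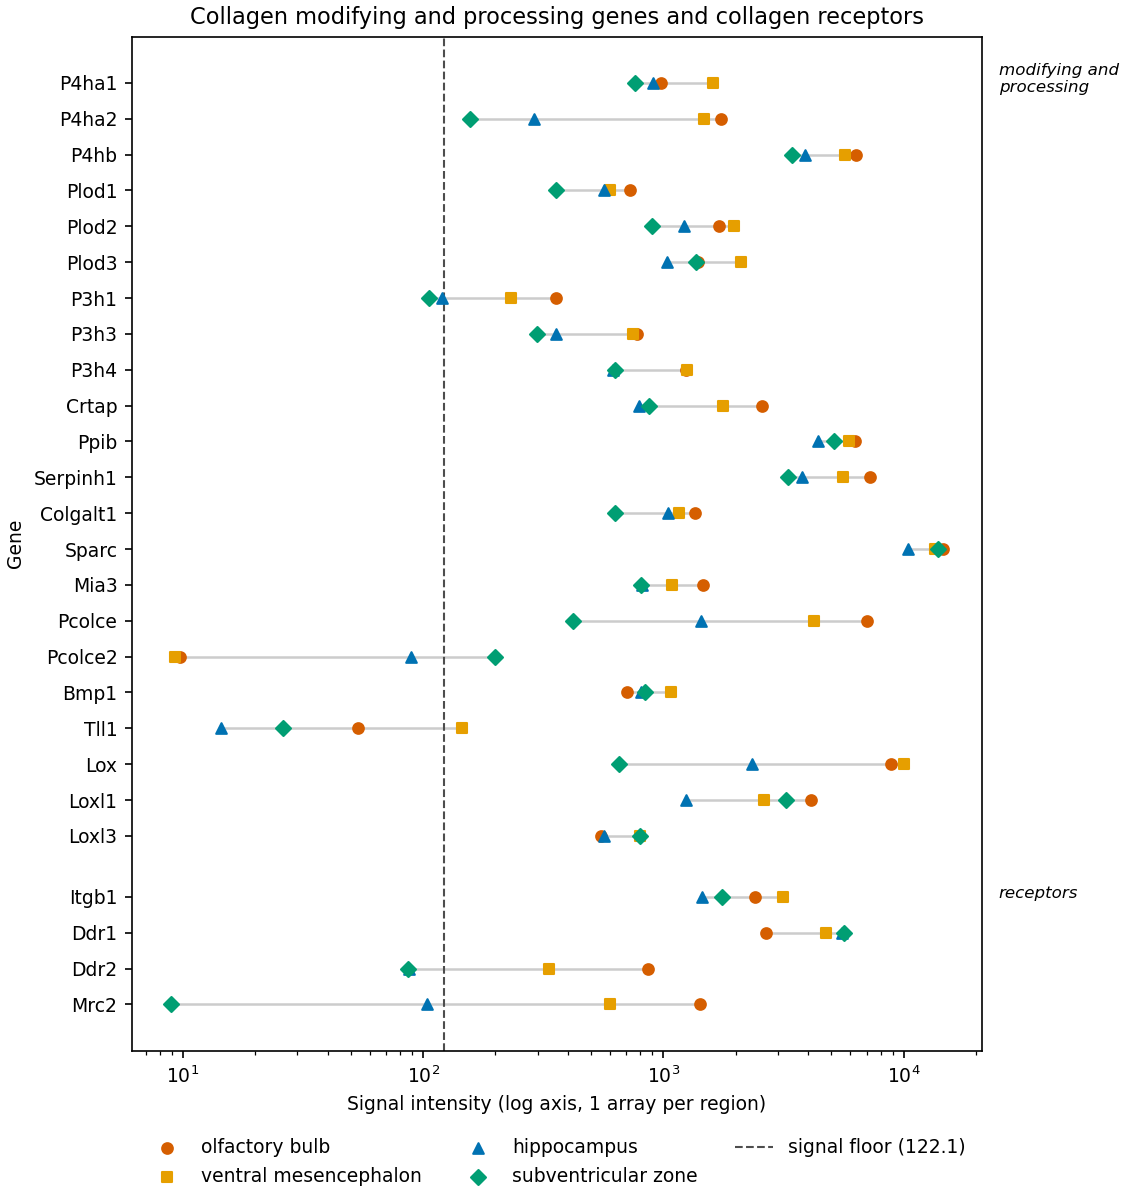
Signal intensity (log axis) of the 22 collagen modifying and processing genes and 4 collagen receptors that passed the floor on any array, with 1 point per region and a dashed line at 122.1. P4ha2, Pcolce, Lox, Ddr2 and Mrc2 have the bulb and mesencephalon points on the right, and Ddr1 has the bulb point on the left.

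Markers of other cell types are given beside the collagens. Of 27 fibroblast and meningeal markers other than collagens, 23 were above the floor in the bulb, 21 in the mesencephalon, 19 in the hippocampus and 12 in the SVZ. Of all genes 55.9% were above it in the bulb, 55.5% in the mesencephalon, 59.0% in the hippocampus and 55.7% in the SVZ. The markers' summed signals were 57391 in the bulb, 31048 in the mesencephalon, 21931 in the hippocampus and 12506 in the SVZ. Of the 36 collagens, 18 were above the floor in the bulb, 18 in the mesencephalon, 20 in the hippocampus and 17 in the SVZ, which is another order. The summed signals of the 36 collagens did follow the order of the markers' sums, at 61325 in the bulb, 51207 in the mesencephalon, 28696 in the hippocampus and 21003 in the SVZ. By class only the fibrillar sums, which held much of these totals (37946 in the bulb), kept this order. The type IV sum was highest in the mesencephalon (9579, against 8653 in the bulb). The FACIT sum was higher in the hippocampus (1305) than in the mesencephalon (838). Among the other collagens the SVZ (5330) was above the hippocampus (3719).

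Decorin, Dcn, a proteoglycan of fibroblasts that binds type I fibrils, read 7039 in the bulb, 6320 in the mesencephalon, 2319 in the hippocampus and 63.9 in the SVZ, in the order of Col3a1. Lum, a related proteoglycan, was highest in the mesencephalon at 1048, against 128 in the bulb, 370 in the hippocampus and 17.9 in the SVZ. Pdgfra, a fibroblast and oligodendrocyte precursor receptor, was highest in the hippocampus at 432, against 156 in the bulb, 74.2 in the mesencephalon and 4.4 in the SVZ. All 3 were under the floor in the SVZ, and no marker of this list was listed at exactly 0. Twist2, Slc6a13, Dpt and Fap of the list were under the floor on all 4 arrays. The other members of this list with the widest gaps were Zic1 (at least 12.3-fold), Fbln1 (8.6-fold) and Aldh1a2 (at least 5.1-fold), called lower in the SVZ, as was Foxd1 (at least 3.1-fold). Igf2 was called lower in the SVZ (at least 7.6-fold) and also higher in the bulb, and Foxc2 (5.5-fold) and Ogn (3.6-fold) were called higher in the bulb. Not all members ran this way. Islr, named after its values were seen, was called higher in the SVZ, with 2283 in the bulb, 2346 in the mesencephalon, 2736 in the hippocampus and 5941 in the SVZ, and Fmod was also higher in both the hippocampus and the SVZ than in the bulb and mesencephalon.

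Markers of vessels gave a different picture. Pericyte and smooth muscle markers, 12 in number, had summed signals of 19265 in the bulb, 20778 in the mesencephalon, 18983 in the hippocampus and 20234 in the SVZ. Acta2 and Tagln held most of these sums, and without them the other 10 summed to 4163 in the bulb, 3492 in the mesencephalon, 4076 in the hippocampus and 2926 in the SVZ. Members of the list differed in direction. Pdgfrb, the pericyte and fibroblast receptor, read 2438 in the bulb, 2078 in the mesencephalon, 1254 in the hippocampus and 766 in the SVZ. Rgs5, called higher in the bulb, read 655 in the bulb, 163 in the mesencephalon, 74.3 in the hippocampus and 46.8 in the SVZ. Cnn1, a smooth muscle calponin with the widest gap of the list, was called lower in the bulb (5.9-fold), with 132 in the bulb, 782 in the mesencephalon, 2105 in the hippocampus and 1697.5 in the SVZ. Cspg4, Kcnj8, Abcc9, Myh11 and Des of this list were under the floor on all 4 arrays. Of 12 endothelial markers, 10 were under the floor on all 4 arrays, and Cdh5 was called higher in the mesencephalon (at least 2.1-fold). Pecam1, a defining endothelial marker, did not exceed 6.4 on any array, and the list's summed signal was 524 in the bulb, 647 in the mesencephalon, 478 in the hippocampus and 225 in the SVZ.

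The summed signals of the other lists did not follow the order of the collagens. Astrocyte markers, 16 genes, summed to 27066 in the bulb, 20047 in the mesencephalon, 46212 in the hippocampus and 41563 in the SVZ. Fabp7, a fatty acid binding protein of radial glia and ensheathing cells that is also on the last list, reached 14077 in the SVZ, and without it the astrocyte sums were 25816 in the bulb, 15525 in the mesencephalon, 39994 in the hippocampus and 27486 in the SVZ. Of the 16, Slc1a2 and Ntsr2 were under the floor on all 4 arrays, and S100b and Gjb6 were under it in the mesencephalon and SVZ. Slc1a2, Ntsr2 and S100b were named after their values were seen. Median shifts over the 12 astrocyte markers whose mean log2 signal passed the floor were -0.78 in the bulb and -0.61 in the mesencephalon. They were 0.61 in the hippocampus and 0.54 in the SVZ. Slc1a3, Mlc1, Aqp4 and Sox9, not called and named after their values were seen, were lower in both bulb and mesencephalon than in both others. So were Aldh1l1 and Fabp7, while Gja1 was higher in both. Called astrocyte markers pointed in several directions. Gjb6 (8.9-fold) and Slc4a4 (2.7-fold) were higher in the bulb, Aldh1l1 (5.5-fold) and Fabp7 (3.6-fold) were lower in the bulb and also higher in the SVZ, Aldoc (2.8-fold) was lower in the mesencephalon, Gfap was higher in the hippocampus and lower in the mesencephalon, and Gja1 (2.2-fold) was lower in the SVZ.

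Microglia and macrophage markers, 15 genes, summed to 34462 in the bulb, 711 in the mesencephalon, 38942 in the hippocampus and 1201 in the SVZ, so they parted the cultures along another line. Cx3cr1 (2.6-fold) and Cd14 (2.5-fold) of this list were called higher in the hippocampus. The 11 olfactory ensheathing and Schwann cell markers summed to 6858 in the bulb, 6540.0 in the mesencephalon, 13002 in the hippocampus and 16304 in the SVZ. Without Fabp7 the other 10 summed to 5608 in the bulb, 2017 in the mesencephalon, 6784 in the hippocampus and 2227 in the SVZ, so the SVZ led through that gene. Ngfr, a receptor of ensheathing and Schwann cells, was called higher in the bulb, with 662 in the bulb, 158 in the mesencephalon, 9.8 in the hippocampus and 13.5 in the SVZ. Sox10, a transcription factor of these cells and of oligodendrocytes, was also called higher in the bulb, with 355 in the bulb, 78.2 in the mesencephalon, 31.6 in the hippocampus and 10.4 in the SVZ. Npy was called higher in the hippocampus (2.2-fold). The part of any of these cell types in the collagen differences was not tested.

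**Figure D5:**
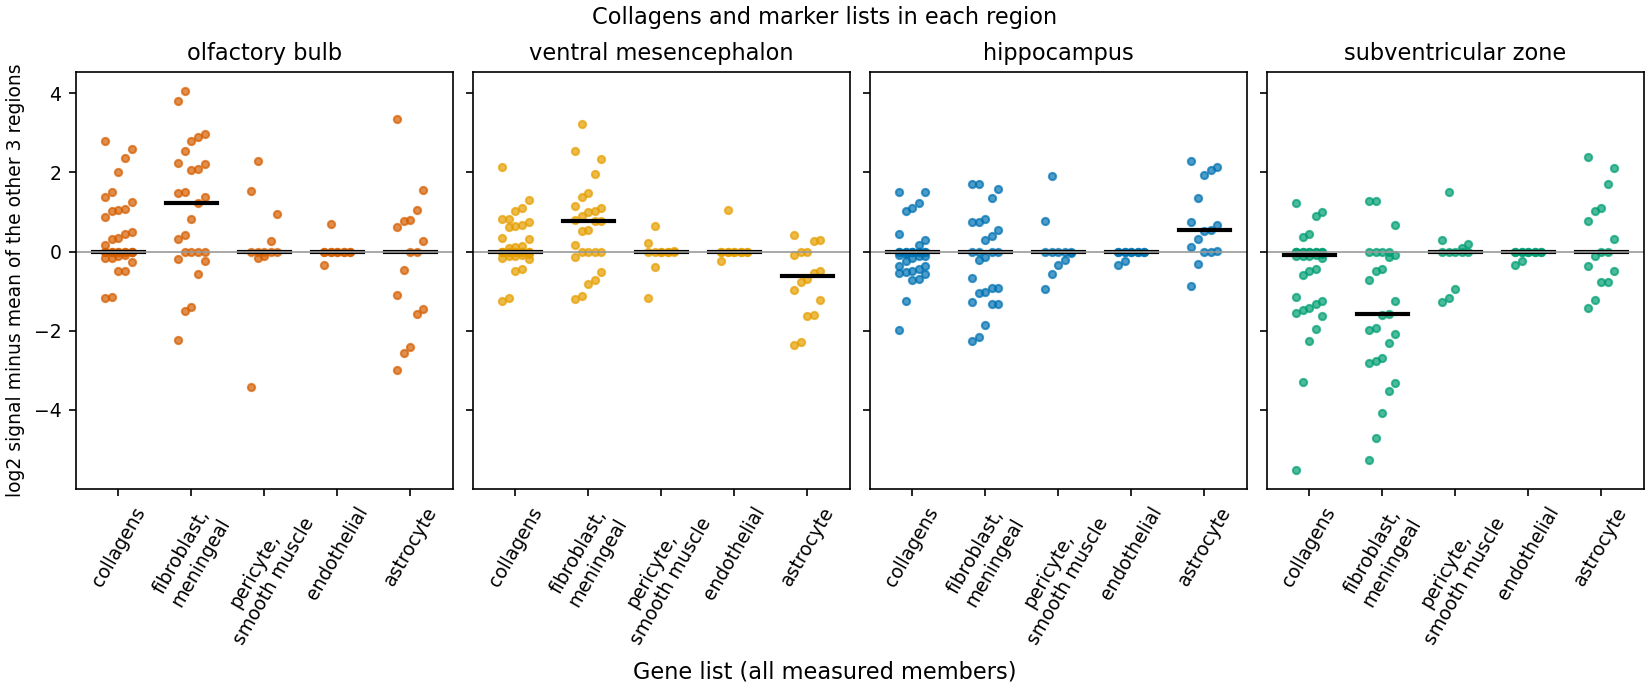
log2 signal of each gene minus the mean of the other 3 regions, in each culture, for all 36 collagens and all measured members of 4 marker lists, with a bar at the median. The fibroblast and meningeal medians are 1.22 in the bulb, 0.78 in the mesencephalon, 0.00 in the hippocampus and -1.58 in the SVZ, and many collagens sit at 0 because they are at the floor in all cultures.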

How the data were processed

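RNA of 4 astrocyte cultures, 1 per region, was biotin-labelled from 2 ug of total RNA and hybridised to Affymetrix arrays, per the labels' protocols. The deposited table holds a linear signal intensity for each probe set, made with GCOS 1.4 per the submitters' processing notes, with the algorithm and scale settings not given in the sources used here and no detection calls. Array medians were 115.6 (olfactory bulb), 117.5 (ventral mesencephalon), 136.8 (hippocampus) and 116.5 (subventricular zone), and 2% trimmed means were 400.1 to 400.2, so the intensities deposited by the authors were not rescaled. All values are therefore relative to the whole signal of their array. Probe sets above the floor numbered 11144 to 11835 per array.

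The platform annotation gave 1 symbol to 20380 probe sets, several to 691 and none to 1555, beside 64 controls. All 36 collagen genes matched a RefSeq gene by identifier. Signals were floored at the 50th percentile and taken to log2, and called by the 2-fold rule. The calls were tested on simulated data with noise of 0.16 log2 and changes wider than 2-fold in genes well above the floor. That test does not cover gaps near 2-fold, signals near the floor or the spread between cultures. For the mean filter, signals of 0 were set to 0.1. Python 3.11.15, numpy 2.4.6 and pandas 2.3.3 were used.

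The members, classes and lists were chosen with earlier results of these data known. Every collagen above the floor is named, and of each other list the called members with the widest gaps, up to 8, with Gfap, Dcn, Lum, Pdgfra, Pdgfrb and Pecam1; names outside this rule are said to be so where they appear. Alternatives were other floors (30th and 70th percentile), the mean of a gene's probe sets, quantile normalization, genes with mean log2 signal above the floor, and leaving out each array.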

Additional observations from a re-analysis of the deposited data

How the results depend on the processing

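Quantile normalization changed no count by more than 1.5 times, but Col6a1 lost its call in the olfactory bulb and Col1a2 gained one in the subventricular zone. Of 148 values under alternatives, 113 stayed within 1.5 times the count or within the probe-set scatter, 35 moved further and 0 reversed. With the floor at the 30th percentile 1 collagen was lower in the olfactory bulb, 1 higher in the ventral mesencephalon and 1 higher in the subventricular zone (SVZ), whose median became -0.94. In pairs, 6 were then higher and 6 lower in the bulb than in the mesencephalon, 7 lower in the mesencephalon than in the hippocampus, 2 lower in it than in the SVZ, and 12 higher in the hippocampus than in the SVZ. With the floor at the 70th percentile 0 were higher in the hippocampus, 3 lower in the SVZ and 11 at least 2-fold apart. In pairs, 1 was lower in the bulb than in the hippocampus, 1 lower in the bulb than in the SVZ, 1 lower in the mesencephalon than in the hippocampus, 0 lower in it than in the SVZ, and 3 higher and 1 lower in the hippocampus than in the SVZ. A higher floor by its construction removes dim genes. With the mean of a gene's probe sets 1 collagen was higher and 0 lower in the hippocampus, 3 were higher in the mesencephalon than in the hippocampus and 1 lower in the hippocampus than in the SVZ. Over genes with mean log2 signal above the floor the medians were 1.03 in the bulb, 0.64 in the mesencephalon, -0.43 in the hippocampus and -1.32 in the SVZ. Leaving out one other array gave 3 to 10 higher and 0 to 2 lower in the bulb, 0 to 4 and 0 to 1 in the mesencephalon, 2 to 4 and 1 to 5 in the hippocampus, 0 to 1 and 5 to 9 in the SVZ, and 14 to 17 at least 2-fold apart. The 11 collagens with both bulb and mesencephalon in front, a count chosen after seeing the data, became 10 to 13 under other floors, averaging or scaling. No paired analysis was possible because each region has 1 array. Signals near the floor set the limit: 11 collagens have no measured level here.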
